A study of Mus musculus with 16 samples.

Results

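The 37 genes of the mouse mitochondrial genome were followed in RNA-sequencing libraries of cultured heart slices. They were chosen as all genes of the count table whose symbol starts with mt-, which gave 37 of 55487 genes, with 13 mRNAs, 2 ribosomal RNAs (rRNAs) and 22 transfer RNAs (tRNAs). Slices of the heart, without apex and base, came from male mice aged 8 weeks and formed 4 groups of 4 libraries. Swhtr null slices carried a stop signal for transcription of the long noncoding RNA Swhtr on both alleles (Swhtr3xpA/3xpA), and were either treated (7 days at 3% oxygen, then 7 days at 21% oxygen) or untreated (14 days at 21% oxygen). WT slices were treated and untreated in the same way. The Swhtr mutation was made in hybrid embryonic stem cells of mixed 129S6 and C57BL6 origin, and the line was crossed back to C57BL/6J and bred as homozygotes, so each genotype came from its own matings. The labels give C57Bl6/J as the strain of all libraries. Each genotype was represented by 4 mice and 8 libraries, and the mice came from 2 litters. Some mice must have given more than 1 library, and the sources used here do not map libraries to mice. The tests treat the libraries as independent, so p-values measure the spread between these libraries.

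The mitochondrial genome is a small circle that every cell holds in many copies. Its mRNAs all encode subunits of the respiratory chain and the ATP synthase, namely of complex I (NADH dehydrogenase, the Nd genes), complex III (cytochrome b), complex IV (cytochrome c oxidase, the Co genes) and complex V (ATP synthase, the Atp genes). Both strands are transcribed as long precursors, and most mRNAs and rRNAs are released where tRNAs are cut out between them. The rRNAs are built into the mitochondrial ribosome, which translates only these mRNAs, and heart muscle is known for its high content of mitochondria. The polymerase, the RNA processing enzymes and all ribosomal proteins are encoded in the nucleus.

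The counts summed to 17830351 to 29941903 per library. No gene symbol of the annotation used was Swhtr, so the genotype labels could not be checked on the targeted gene. Defining genes of cardiomyocytes were near 0 in every group. Of 14 such markers, Tnnt2 was the highest, with a mean of 7.61 CPM (counts scaled to a common library size), while Myh7 and Ckm averaged 0.07 and 0.04 CPM over the 16 libraries. The summed level of these 14 markers was 10.9 to 123 CPM in treated and 6.98 to 13.1 CPM in untreated Swhtr null slices, and 9.60 to 56.9 CPM in treated and 7.61 to 23.1 CPM in untreated WT slices. The 10 fibroblast markers summed to 23620 to 33600 CPM over all groups. The 10 macrophage and monocyte markers summed to 3979 to 9858 CPM in treated and 7871 to 12440 CPM in untreated Swhtr null slices, and to between 9006 and 11690 CPM in WT slices. The slices thus showed the RNA of fibroblasts and macrophages far above that of heart muscle cells at the end of culture, although the labelled tissue is heart. In RNA from whole slices, fewer cells of a type and less RNA per cell cannot be told apart.

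The genes lie so close on the mitochondrial chromosome that they abut or overlap. The sequences below show examples of this and of a nuclear copy (GENCODE M21 annotation and transcripts, GRCm38, which is mm10). Whether the close spacing affected the counts was not tested. They are written 5′ to 3′ on the strand of the gene named. The first pair holds mt-Tp, the proline tRNA gene (chrM:15356-15422, minus strand), and mt-Tt, the threonine tRNA gene that abuts it (chrM:15289-15355, plus strand). In the end of mt-Atp8 (chrM:7880-7969) the capitals are the 43 bases shared with the start of mt-Atp6, and in the end of mt-Nd4l (chrM:10114-10173) they are the 7 bases shared with mt-Nd4. In the end of mt-Nd5 (chrM:13506-13565) the capitals are the 14 bases that pair with the end of mt-Nd6, which is read from the other strand. The last pair holds the first 90 bases of mt-Nd3 (chrM:9459-9548) and the aligned bases of Gm28438, a copy in the nuclear genome (chr1:24613030-24613119, minus strand), with the 1 base that differs between the genes in capitals.
mt-Tp: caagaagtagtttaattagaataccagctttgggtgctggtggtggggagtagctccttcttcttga
mt-Tt: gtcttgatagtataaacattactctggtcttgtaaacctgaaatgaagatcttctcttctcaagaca
end of mt-Atp8: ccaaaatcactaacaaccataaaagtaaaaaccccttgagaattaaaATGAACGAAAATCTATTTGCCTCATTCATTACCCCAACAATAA
end of mt-Nd4l: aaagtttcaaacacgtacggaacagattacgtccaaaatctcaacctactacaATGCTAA
end of mt-Nd5: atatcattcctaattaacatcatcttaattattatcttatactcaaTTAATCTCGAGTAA
mt-Nd3: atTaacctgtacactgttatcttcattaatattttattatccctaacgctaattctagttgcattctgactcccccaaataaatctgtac
Gm28438: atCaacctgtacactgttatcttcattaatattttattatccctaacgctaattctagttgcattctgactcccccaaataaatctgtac

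Together the 13 mRNAs took 1.94 ± 0.194% of all counts in treated and 1.55 ± 0.161% in untreated Swhtr null slices (SD, n = 4 each). In single libraries the share was 2.09, 1.82, 1.73 and 2.12% in treated and 1.54, 1.78, 1.41 and 1.47% in untreated Swhtr null slices. The 2 groups overlapped, because the treated library 3 lay below the untreated library 2. In WT slices the share was 1.87 ± 0.150% in treated and 1.64 ± 0.0402% in untreated slices (SD, n = 4 each), with 1.95, 1.996, 1.88 and 1.66% against 1.65, 1.69, 1.59 and 1.64%. The treated WT library 4 was at the level of the untreated ones. Counting error is small beside these differences, with a half-width of at most 0.00613 percentage points for the 95% Wilson interval of any library. The 2 rRNAs took only 0.0617 ± 0.00216% and 0.0720 ± 0.0227% of the counts in treated and untreated Swhtr null slices, and 0.0564 ± 0.00196% and 0.0510 ± 0.00847% in treated and untreated WT slices (SD, n = 4 each). The sources give a library kit for mRNA in the sample labels and a depletion of rRNA in the study's methods, and both steps act on rRNA, so its level here is not a level in the tissue.

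Per length, mt-Co1 was the most abundant member, with a mean of 4367 CPM per kilobase over the 16 libraries. mt-Co2 (2876) and mt-Co3 (2029 CPM per kilobase) followed. By the counts given to each member, the catalytic core of cytochrome c oxidase thus held the top of the order. mt-Co1 lay above mt-Co2 in 16 of 16 libraries, and the ranges of the 2 genes did not overlap. Next came mt-Atp6 with 1393, mt-Nd1 with 1305, mt-Cytb with 1124 and mt-Nd4 with 1025 CPM per kilobase. mt-Nd2 (666), mt-Nd5 (593), mt-Nd3 (496), mt-Nd4l (469) and mt-Nd6 (411 CPM per kilobase) were lower. Apart from mt-Co1 and mt-Co2, every pair of neighbours down to mt-Nd6 had ranges that overlapped, and the order of mt-Nd3 over mt-Nd4l held in only 10 of 16 libraries. mt-Rnr2 (16S rRNA, 245) and mt-Rnr1 (12S rRNA, 227 CPM per kilobase) were below all of these mRNAs on average. The place of mt-Atp6 in this order is less sure. Gm10925, a nuclear copy identical to it over 678 bases, had a mean of 36620 counts against 21160 for mt-Atp6. Gm28437, identical to mt-Co3 over 783 bases, had 35530 counts against 35450 for mt-Co3. Whether the counting of reads shared with other genes changed the order was not tested.

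mt-Atp8, which encodes a small subunit of ATP synthase, was almost without counts. It had a mean of 13.6 counts and 3.01 CPM per kilobase, while mt-Atp6, with which it shares 43 of its 204 bases, had a mean of 21160 counts. Its 161 bases outside mt-Atp6 are flanked on the other side by mt-Tk at a distance of 1 base. Of the 22 tRNA genes, 21 had 0 counts in all 16 libraries. A count of 0 allows a level of up to 3 counts per library. These genes are 59 to 75 bases long, while the reads were 150 bases long. Along the numbered sequence, at most 32 bases without a gene lie between any of them and a neighbour. This leaves out the stretch that on the circle joins the end of mt-Tp (position 15422) to mt-Tf (chrM:1-68). The exception was mt-Tp, with a mean of 913 counts. It is the last gene annotated on the chromosome, and no gene lies between it and mt-Tf, the first, which had 0 counts. mt-Tt, which abuts mt-Tp on the other side and has the same length of 67 bases, also had none. How reads that touch 2 genes were counted is not given in the sources used here, and its part in these low counts was not tested.

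**Figure D1:**
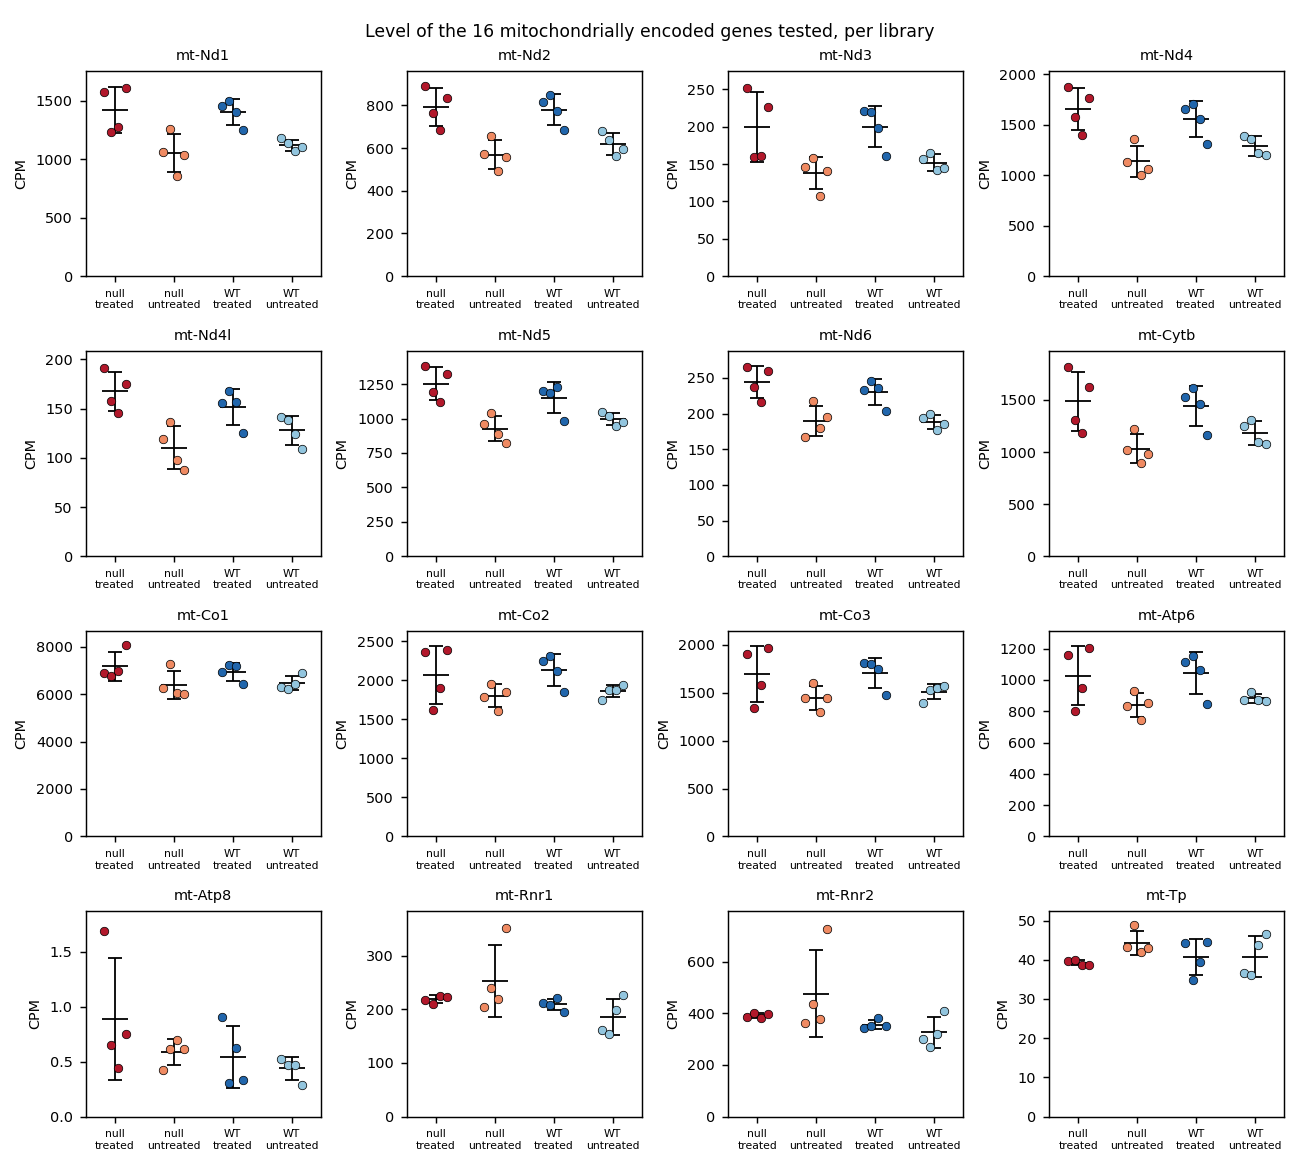
Level of each of the 16 members tested in CPM (y axes, from 0) in every library (points) of the 4 groups, which are Swhtr null treated, Swhtr null untreated, WT treated and WT untreated from left to right, with the mean and SD of the 4 libraries. In 5 of the 7 complex I panels all treated Swhtr null points sit above the untreated ones, and in the rRNA panels 1 untreated Swhtr null library stands above all others, at 351.5 CPM for mt-Rnr1 and 727.3 CPM for mt-Rnr2.

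Treated and untreated slices were compared within each genotype to ask how the mitochondrial transcripts stood 7 days after the end of low oxygen. In Swhtr null slices all 13 mRNAs were higher in treated slices, with a median log2 fold change of 0.43 (range 0.16 to 0.60), against a median of 0.01 over the 24971 genes tested. Of the 7 complex I mRNAs, 6 had an adjusted p under 0.05 in edgeR's quasi-likelihood test with Benjamini-Hochberg adjustment. None of the other 6 mRNAs passed. Over all genes tested, 0.909% had an adjusted p under 0.05 and were higher. With DESeq2, 8 of 13 mRNAs had an adjusted p under 0.05, with mt-Nd3 (0.0148) and mt-Cytb (0.00566) added, against 2.67% of all genes. When a log2 fold change over 0.58 (1.5-fold) was required as well, only mt-Nd4l was called, and 0.621% of all genes were called in either direction. At an unadjusted p under 0.05, 11 of 13 mRNAs were higher, against 8.69% of all genes. The median sums of cell type markers differed between the same groups, though the ranges overlapped. The 7 markers of smooth muscle cells and pericytes summed to 794.8 to 1061 CPM (median 970.5) in treated and 585.3 to 822.5 CPM (median 645.2) in untreated Swhtr null slices, and the 8 endothelial markers to 1312 to 2094 CPM (median 1732) in treated and 1226 to 1518 CPM (median 1466) in untreated ones. In WT slices the median for smooth muscle cells and pericytes was 757.5 CPM in treated and 785.9 CPM in untreated slices. The WT endothelial median was 1536 CPM in treated and 1606 CPM in untreated slices. For cardiomyocyte markers the medians were 46.2 and 9.35 CPM in treated and untreated Swhtr null slices, and 19.4 and 8.22 CPM in WT slices. The part of these markers, and of the macrophage markers given above, in the mitochondrial levels was not tested.

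mt-Nd4, a membrane subunit of complex I in the proton-pumping arm, had 1878, 1581, 1404 and 1765 CPM in treated and 1134, 1357, 1007 and 1058 CPM in untreated Swhtr null slices. All treated libraries lay above all untreated ones (log2 fold change 0.54, SE 0.10, adjusted p = 0.00844 from edgeR). mt-Nd4l, a small membrane subunit encoded just before it, had 191.8, 157.4, 146 and 174.7 CPM in treated and 118.9, 136.9, 98.2 and 87.4 CPM in untreated slices. Its groups did not overlap either (log2 fold change 0.60, SE 0.14, adjusted p = 0.030). mt-Nd2 was at 889.1, 763.7, 685.9 and 835.5 CPM in treated and 570.6, 656.8, 492.3 and 557.3 CPM in untreated slices, again without overlap (log2 fold change 0.48, SE 0.09, adjusted p = 0.00889). mt-Nd5, whose product is the largest of the mitochondrially encoded subunits, was at 1380, 1194, 1121 and 1320 CPM in treated and 962.3, 1038, 886.5 and 824.3 CPM in untreated slices (log2 fold change 0.43, SE 0.09, adjusted p = 0.00889). These 4 genes and mt-Nd3 were the 5 of 13 mRNAs with all treated libraries above all untreated ones, and 3.54% of all genes had such a separation in this direction.

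mt-Nd1, a membrane subunit next to the quinone site, had 1576, 1229, 1272 and 1607 CPM in treated and 1057, 1261, 859.9 and 1031 CPM in untreated Swhtr null slices (log2 fold change 0.43, SE 0.10, adjusted p = 0.030). Here the groups overlapped through the untreated library 2. mt-Nd6, the only mRNA encoded on the other strand, had 265.3, 236.9, 216.3 and 259.1 CPM in treated and 167.8, 217.2, 179.6 and 194.8 CPM in untreated slices (log2 fold change 0.36, SE 0.08, adjusted p = 0.021). Its groups also overlapped, by less than 1 CPM. mt-Nd3 was at 252.3, 160.1, 160.5 and 226.3 CPM in treated and 145.9, 158.7, 107.7 and 140.6 CPM in untreated slices, a difference that did not pass the test (log2 fold change 0.53, SE 0.16, adjusted p = 0.107), but did with the replicate number as a block (adjusted p = 0.0304 from edgeR).

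mt-Cytb, the only mitochondrially encoded subunit of complex III, had a log2 fold change within the range of the complex I mRNAs but missed the threshold. It had 1814, 1311, 1187 and 1628 CPM in treated and 1021, 1225, 899.4 and 983 CPM in untreated Swhtr null slices (log2 fold change 0.53, SE 0.13, adjusted p = 0.053 from edgeR). The groups overlapped because the treated library 3 lay below the untreated library 2. It passed with the replicate block (adjusted p = 0.00889 from edgeR) and with edgeR's filterByExpr as the filter on low counts (adjusted p = 0.0419), as it did with DESeq2. It did not pass in edgeR with no filter (adjusted p = 0.119) or with only the libraries compared (adjusted p = 0.131). With single libraries left out, its adjusted p from edgeR was 0.0147 to 0.198. The complex IV mRNAs had the smallest differences. mt-Co1, the catalytic subunit, was at 6888, 6766, 6979 and 8064 CPM in treated and 6257, 7274, 6062 and 6025 CPM in untreated slices (log2 fold change 0.16, SE 0.08, adjusted p = 0.30). mt-Co2 (log2 fold change 0.20, SE 0.10, adjusted p = 0.35) and mt-Co3 (0.23, SE 0.10, adjusted p = 0.26) were close to it. mt-Atp6, the subunit of the proton channel of ATP synthase, had a log2 fold change of 0.29 (SE 0.11, adjusted p = 0.20), and mt-Atp8, at 6 to 37 counts per library, of 0.57 with an SE of 0.43 (adjusted p = 0.55).

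**Figure D2:**
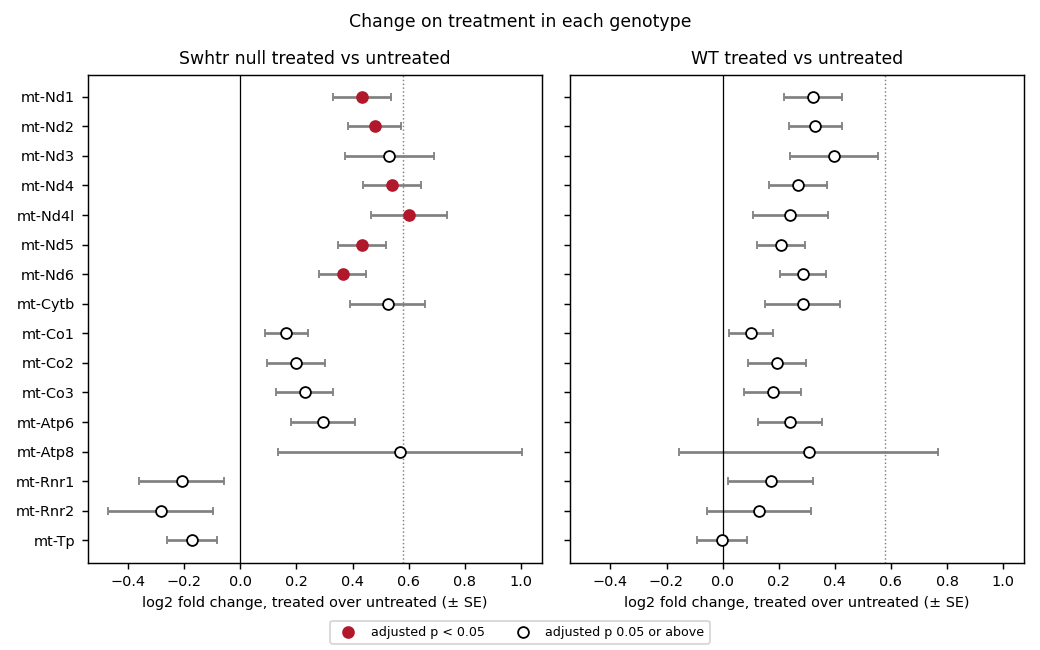
Log2 fold change of treated over untreated slices with its SE (x axis) for the 16 members tested (rows), in Swhtr null slices on the left and WT slices on the right. Filled points have an adjusted p under 0.05, and the dotted line marks the log2 fold change of 0.58. In Swhtr null slices the complex I mRNAs and mt-Cytb lie between 0.36 and 0.60 and the complex IV mRNAs between 0.16 and 0.23, and in WT slices no point is filled.

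The call of mt-Nd4l depended on the libraries in the fit. With only the 8 Swhtr null libraries fitted, 0 of the 13 mRNAs had an adjusted p under 0.05 in edgeR, and all 13 were still higher. In that fit 9 of the 13 were higher at an unadjusted p under 0.05, against 6.54% of all genes. With 1 library left out at a time, between 1 and 8 of the 13 mRNAs had an adjusted p under 0.05. The lowest count, 1, was without the untreated Swhtr null library 4, and the counts without the untreated library 3, the treated library 1 and the treated library 4 were 3 each. Deviations of same-numbered Swhtr null libraries from their group means correlated at 0.148 to 0.591. The treated library 3 correlated best with the untreated library 4, so shared mice were not shown. With the replicate number as a block, 8 of 13 mRNAs had an adjusted p under 0.05 and 616 genes were called, against 155 without it. Within the 4 numbered pairs, 13, 8, 12 and 13 of the 13 mRNAs were higher in the treated library. In pair 2 the genes that were lower in the treated library were mt-Nd1, mt-Co1, mt-Co2, mt-Co3 and mt-Atp6. The treated library of pair 2 also had the highest sum of cardiomyocyte markers (123 CPM) and the lowest sum of macrophage and monocyte markers (3979 CPM) of its group, and the part of either in the mitochondrial levels was not tested.

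In WT slices all 13 mRNAs were higher in treated slices too, with a median log2 fold change of 0.27 (range 0.10 to 0.40), against 0.01 over all genes. None of the 16 members had an adjusted p under 0.05 in edgeR, and 0% of all genes were called. DESeq2 also gave 0 of 13 mRNAs an adjusted p under 0.05. At an unadjusted p under 0.05, edgeR found 8 of 13 mRNAs higher, which were 6 of 7 complex I mRNAs, mt-Cytb and mt-Atp6, against 2.62% of all genes. mt-Nd1 had 1456, 1498, 1405 and 1245 CPM in treated and 1177, 1136, 1067 and 1102 CPM in untreated WT slices (log2 fold change 0.32, SE 0.10). mt-Nd2 had 816.3, 849.9, 772.7 and 683.8 CPM in treated and 681.3, 639.4, 565.5 and 596.4 CPM in untreated WT slices (log2 fold change 0.33, SE 0.09). For mt-Nd6 the values were 233.3, 246.3, 235.6 and 204.2 CPM in treated and 193.4, 199.1, 176.4 and 185.1 CPM in untreated WT slices (log2 fold change 0.29, SE 0.08). These 3 mRNAs did not overlap between the WT groups, as 1.92% of all genes did in this direction. mt-Nd3 had the largest log2 fold change of the 13 (0.40, SE 0.16), and mt-Co1 the smallest (0.10, SE 0.08). The treated WT library 4 was the lowest of its group for 12 of the 13 mRNAs, and without it 11 of 13 mRNAs had an unadjusted p under 0.05.

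The response did not differ detectably between the genotypes. The difference of the log2 fold changes, Swhtr null minus WT, was above 0 for 13 of 13 mRNAs, with a median of 0.13 and a range of 0.00 to 0.36. However, no mRNA had even an unadjusted p under 0.05 in the fit of all 16 libraries, and 0% of all genes were called in this test. The largest differences were those of mt-Nd4l (0.36, SE 0.19, adjusted p = 0.72 from edgeR), mt-Nd4 (0.27, SE 0.15, adjusted p = 0.72), mt-Cytb (0.24, SE 0.19, adjusted p = 0.78) and mt-Nd5 (0.23, SE 0.12, adjusted p = 0.72). With single libraries left out, 9 to 13 of the 13 differences were above 0. Of these, 0 to 3 had an unadjusted p under 0.05 in edgeR, and 0 had an adjusted p under 0.05. A larger response in Swhtr null than in WT slices was thus not shown.

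Between the genotypes in treated slices, 0 of 16 members were called and 0 had an unadjusted p under 0.05 in edgeR, against 0.0921% of all genes called. DESeq2 likewise found 0 of the 13 mRNAs higher at an unadjusted p under 0.05. The median log2 fold change of the 13 mRNAs, Swhtr null over WT, was 0.04, with 9 higher and 4 lower. With single libraries left out it was -0.033 to 0.090, with 6 to 13 of 13 higher, and it was below 0 without the treated WT library 4 (-0.032), the treated Swhtr null library 1 (-0.033) or the treated Swhtr null library 4 (-0.00048). In untreated slices 0 of 16 members were called, against 0.100% of all genes, and the 13 mRNAs had a median of -0.09 with 2 higher and 11 lower. mt-Nd4l (log2 fold change -0.21, SE 0.14) and mt-Cytb (-0.20, SE 0.13) had the lowest values, and neither had an unadjusted p under 0.05. The same untreated libraries serve the comparisons of treatment and of genotype, so these values are not separate from those above.

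The make-up of the mitochondrial mRNA counts differed along with the levels. Complex I genes gave 31.3, 31.0, 28.4 and 28.9% of the counts of the 13 mRNAs in treated and 26.8, 27.1, 25.5 and 25.9% in untreated Swhtr null slices. Complex IV genes gave 54.2, 56.7, 59.4 and 57.9% in treated and 61.2, 60.8, 63.0 and 62.0% in untreated Swhtr null slices. Neither share overlapped between these groups. In WT slices complex I gave 29.6, 29.4, 29.0 and 28.6% in treated and 29.3, 28.2, 26.4 and 25.9% in untreated slices, with overlap, and complex IV 56.8, 56.7, 57.8 and 59.1% against 57.8, 58.3, 61.4 and 62.5%. The 2 genes of complex V stayed between 4.68 and 5.79% in every library. These shares do not depend on library size, and since they were chosen after the values were seen they are given without a test.

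**Figure D3:**
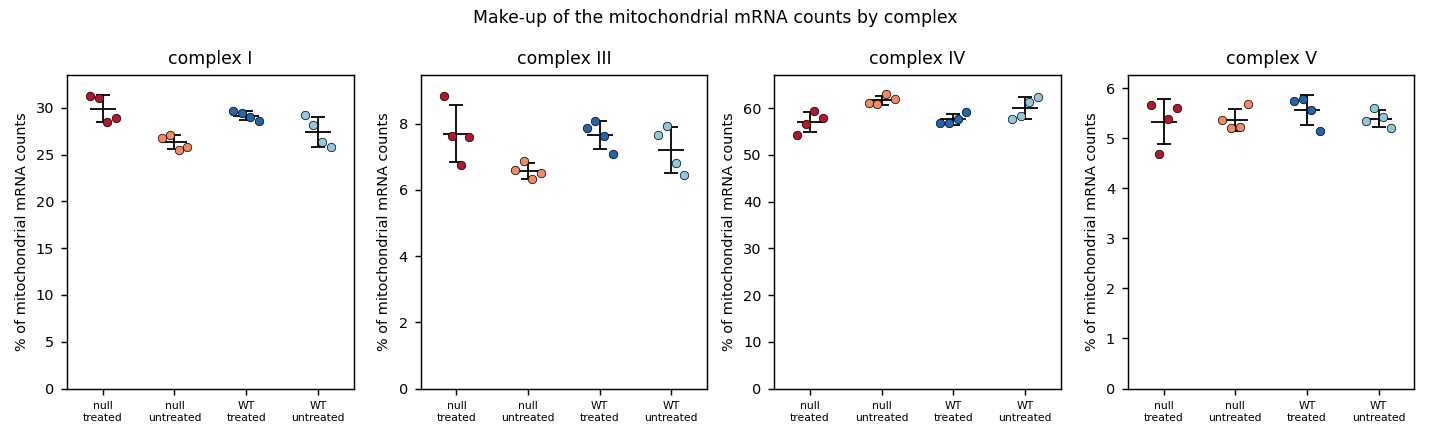
Share of each complex in the counts of the 13 mitochondrial mRNAs in percent (y axes, from 0) per library (points), for Swhtr null treated, Swhtr null untreated, WT treated and WT untreated slices from left to right, with mean and SD. The complex I share averages 29.9% in treated and 26.3% in untreated Swhtr null slices, and the complex IV share 57.1% and 61.7%, while the 2 WT groups overlap in both.

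Neither rRNA passed the test between treated and untreated slices in either genotype. mt-Rnr2, the RNA of the large ribosomal subunit, was at 385.2, 402.7, 381.8 and 395.1 CPM in treated and 363.8, 435.4, 378.7 and 727.3 CPM in untreated Swhtr null slices (log2 fold change -0.28, SE 0.19, adjusted p = 0.49 from edgeR). mt-Rnr1, the RNA of the small subunit, was at 217.4, 209.9, 225.4 and 223 CPM in treated and 203.5, 239, 218.7 and 351.5 CPM in untreated Swhtr null slices (log2 fold change -0.21, SE 0.15, adjusted p = 0.53). Both values rest on the untreated library 4, which was 1.85 times the mean of the other 3 for mt-Rnr2 and 1.60 times for mt-Rnr1. Without it the log2 fold changes were -0.01 for both genes. This library was unremarkable in its mRNA share (1.47%) and in depth (19961600 counts), and it had the highest sum of macrophage and monocyte markers of all libraries (12440 CPM), whose part in the rRNA level was not tested.

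In WT slices mt-Rnr2 had 341.8, 349.3, 382 and 350.8 CPM in treated and 301.3, 269.5, 320.7 and 410 CPM in untreated slices (log2 fold change 0.13, SE 0.19, adjusted p = 0.999 from edgeR). mt-Rnr1 had 210.9, 208, 221.9 and 195.3 CPM in treated and 162.1, 153.4, 199.1 and 227.6 CPM in untreated WT slices (log2 fold change 0.17, SE 0.15, adjusted p = 0.999). The coefficient of variation of mt-Rnr2 was 2.43% in treated and 35.7% in untreated Swhtr null slices, and 4.998% in treated and 18.5% in untreated WT slices. Without the untreated Swhtr null library 4 it was 9.62% in untreated Swhtr null slices. Between untreated Swhtr null and WT slices both rRNAs were higher at an unadjusted p under 0.05, as were 2.72% of all genes, and neither passed the adjusted test. The log2 fold change was 0.55 for mt-Rnr2 (SE 0.19, adjusted p = 0.90) and 0.45 for mt-Rnr1 (SE 0.15, adjusted p = 0.90). Without the untreated Swhtr null library 4 these values were 0.27 and 0.25.

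Ratios within a library do not depend on its depth. The log2 ratio of mt-Rnr2 to mt-Nd1, which are transcribed from the same strand, was -2.03, -1.61, -1.74 and -2.02 in treated and -1.54, -1.53, -1.18 and -0.50 in untreated Swhtr null slices. These groups did not overlap, and the difference of means was -0.66 (exact permutation test, two-sided, p = 0.0286, the smallest that 4 against 4 libraries allow, and 0.343 after adjustment over the 12 ratio tests). Without the untreated library 4 the difference was -0.43, and the groups still did not overlap. The adjusted exact permutation p was then 0.686. It decides nothing, because fewer libraries raise the smallest p that the test allows. In WT slices the same difference was -0.17 with overlap (exact permutation p = 0.314, adjusted p = 0.588). The log2 ratio of mt-Rnr2 to mt-Rnr1 was 0.84 ± 0.07 in treated and 0.89 ± 0.11 in untreated Swhtr null slices, and 0.77 ± 0.06 in treated and 0.81 ± 0.09 in untreated WT slices (SD, n = 4 each). The log2 ratio of mt-Nd6, from one strand, to mt-Cytb, from the other, was -2.59 ± 0.15 in treated and -2.44 ± 0.14 in untreated Swhtr null slices, and -2.64 ± 0.09 in treated and -2.65 ± 0.08 in untreated WT slices (SD, n = 4 each). The strand setting of the counts is not given, so this ratio need not separate the transcripts of the 2 strands. None of the 12 ratio tests passed after adjustment. A single test at the smallest p possible could not pass, so this does not show that the ratios were alike.

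**Figure D4:**
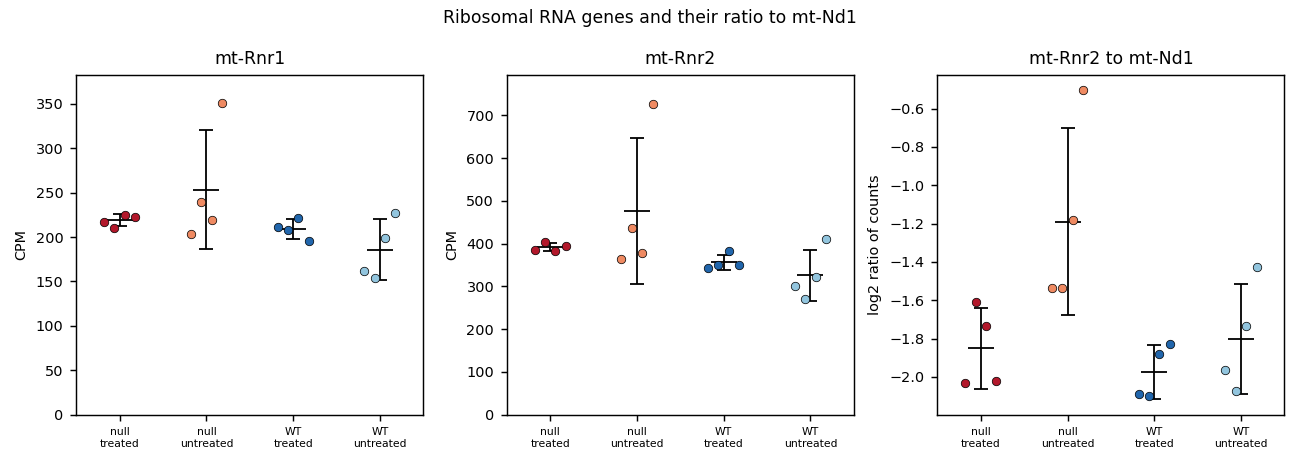
CPM of mt-Rnr1 and mt-Rnr2 (left and middle, y axes from 0) and log2 ratio of the counts of mt-Rnr2 to mt-Nd1 (right) per library (points), for Swhtr null treated, Swhtr null untreated, WT treated and WT untreated slices from left to right, with mean and SD. The 4 treated Swhtr null libraries lie within 381.8 to 402.7 CPM for mt-Rnr2, and 1 untreated Swhtr null library reaches 727.3 CPM. In the ratio the treated Swhtr null points (-1.61 and below) lie below the untreated ones (-1.54 and above).

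mt-Tp, the only tRNA gene with counts, had 39.7, 39.8, 38.7 and 38.8 CPM in treated and 43.3, 48.8, 41.9 and 42.98 CPM in untreated Swhtr null slices. The treated libraries were all below the untreated ones, by a log2 fold change of -0.17 (SE 0.09, adjusted p = 0.34 from edgeR). The share of all genes separated in this direction was not counted, and 3.54% were separated in the other. In WT slices mt-Tp had 44.3, 34.7, 39.3 and 44.5 CPM in treated and 36.6, 36.1, 43.9 and 46.5 CPM in untreated slices, with a log2 fold change of 0.00 (SE 0.09). mt-Tp lies on the minus strand, and without a known strand setting its counts cannot be assigned to a strand.

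Several mRNAs share their sequence with nuclear genes, and the counts of both were alike. Copies of mitochondrial DNA lie in the nuclear genome as pseudogenes, and the transcripts of 11 such pairs aligned over at least 100 bases at 95% identity or more. For 6 mRNAs the copy matched at least 50% of the gene at 99% identity or more, and all 6 copies lie within chr1:24611535-24615565, on the minus strand and in the order of the mitochondrial genes. Gm28661 and mt-Co2 were identical over 681 bases, and the copy's counts were 100.4 to 100.8% of those of mt-Co2 in the 16 libraries. Gm28437 and mt-Co3 were identical over 783 bases with 100.1 to 100.3%, and Gm10222 and mt-Nd4l over 294 bases with 100.2 to 101.1%. Gm28438 differs from mt-Nd3 only by T3C over 345 aligned bases (the mitochondrial base first, position 3 counted from the start of mt-Nd3), which is the capital in the last pair of sequences above, and it had 99.7 to 100.4% of the counts. Its counts differed from those of mt-Nd3 by at most 15 in any library.

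Gm10925, identical to mt-Atp6 over 678 bases, had 165 to 180% of the counts of mt-Atp6. Gm28439, identical to the first 876 bases of mt-Nd4, had 42.96 to 47.8%, and Gm29216, which matches 31.3% of mt-Co1 with the single difference A1066T, had 32.8 to 42.0%. In contrast Gm13340 and Gm13341 on chromosome 2, at 97.6% identity to mt-Co1 and 95.9% to mt-Co2, had at most 0.227 and 0.509% of the counts. How reads that fit 2 places were counted is not given in the sources used here. Reads of mitochondrial and nuclear origin cannot be told apart for the near-identical pairs. In Swhtr null slices the log2 fold change of treated over untreated was 0.60 for mt-Nd4l and 0.60 for Gm10222, 0.53 for mt-Nd3 and 0.53 for Gm28438, 0.20 for mt-Co2 and 0.20 for Gm28661, and 0.23 for mt-Co3 and 0.23 for Gm28437. It was 0.54 for mt-Nd4 and 0.61 for Gm28439, 0.29 for mt-Atp6 and 0.35 for Gm10925, and 0.16 for mt-Co1 and -0.03 for Gm29216. Of these copies, Gm10222 and Gm28439 were called, as mt-Nd4l was. No copy with 99% identity over 50% of the gene was found for mt-Nd1, mt-Nd2, mt-Nd5 and mt-Nd6, which are 4 of the 6 mRNAs past the test in Swhtr null slices, nor for mt-Cytb and the rRNAs.

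**Figure D5:**
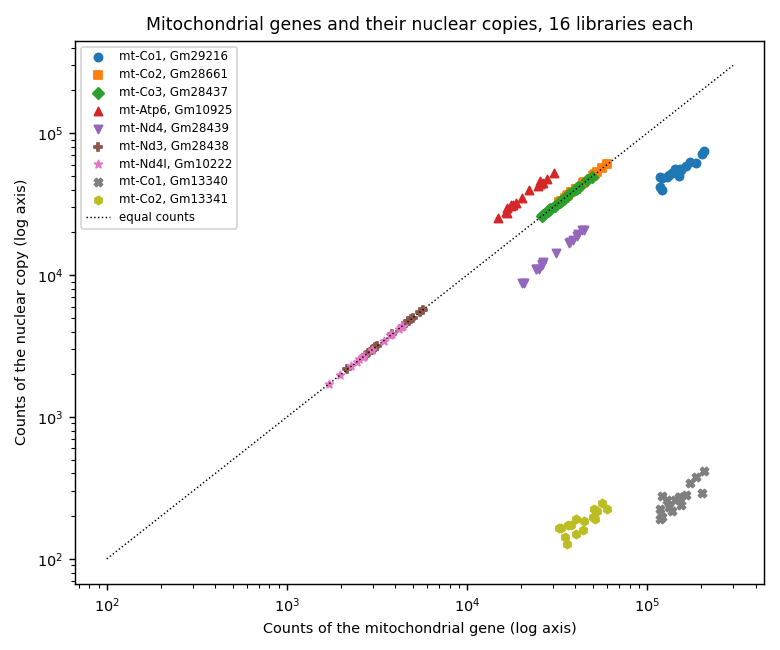
Counts of 9 nuclear copies (y axis, log scale) against those of the mitochondrial gene they match (x axis, log scale), 1 point per library and 16 per pair, with the dotted line at equal counts. The pairs of mt-Co2, mt-Co3, mt-Nd3 and mt-Nd4l lie on the line, Gm10925 lies above it at 165 to 180%, and the less similar Gm13340 and Gm13341 lie far below it.

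The nuclear genes that transcribe, process and translate mitochondrial RNA were looked at beside the members. All 57 genes of a list of mitochondrial gene expression (transcription and mtDNA maintenance, RNA processing, regulators, translation) were tested, and 0 were called in any of the 5 comparisons by edgeR. Of all genes, 0.621% were called by treatment in Swhtr null and 0% in WT slices. Between the genotypes 0.0921% were called in treated and 0.100% in untreated slices, and 0% for the difference of responses. With shares this low, 0 calls among 57 genes do not set the list apart. In Swhtr null slices the log2 fold change of treated over untreated was above 0 for 26 and below 0 for 31 of them, with a median of -0.01. At an unadjusted p under 0.05 there were 3 above and 4 below, against 8.69% of all genes above and 7.84% below. In WT slices it was above 0 for 32 and below 0 for 25, with a median of 0.03, and 1 above and 1 below had an unadjusted p under 0.05, against 2.62% and 2.20% of all genes. The list held 1 gene with an adjusted p under 0.05, in Swhtr null slices, where 0.909% of all genes were higher at that threshold. Pprc1, a coactivator of the PGC-1 family that acts on nuclear genes for mitochondria, was at 58.3, 67.8, 63.0 and 64.3 CPM in treated and 54.3, 48.4, 47.8 and 52.2 CPM in untreated Swhtr null slices. Its groups did not overlap (log2 fold change 0.32, SE 0.06, adjusted p = 0.00814 from edgeR), though the change is under the fold threshold. In WT slices Pprc1 averaged 56.3 ± 1.67 CPM in treated and 53.9 ± 1.84 CPM in untreated slices (SD, n = 4 each). The difference of its responses was 0.26 (SE 0.09, adjusted p = 0.72).

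The next members of the list by p in Swhtr null slices were Hsd17b10, a subunit of the mitochondrial RNase P that cuts tRNAs at their 5′ end, and Mterf4, which takes part in the assembly of the mitochondrial ribosome. Hsd17b10 averaged 23.1 ± 1.33 CPM in treated and 27.2 ± 1.54 CPM in untreated slices (SD, n = 4 each; log2 fold change -0.24, adjusted p = 0.13 from edgeR), and Mterf4 7.14 ± 0.483 and 8.77 ± 0.209 CPM (log2 fold change -0.30, adjusted p = 0.15). In WT slices the smallest p-values were those of Fastkd3, an RNA-binding protein of mitochondria (log2 fold change 0.24), Twnk, the helicase of mtDNA replication (-0.23), and Rexo2, an exonuclease of short RNAs (0.14), with an adjusted p of 0.999 each. Between the genotypes in treated slices Mrm2, a methyltransferase of the 16S rRNA, averaged 4.58 ± 0.552 CPM in Swhtr null and 6.04 ± 0.424 CPM in WT slices (SD, n = 4 each; log2 fold change -0.40, adjusted p = 0.77). Ppargc1a, the PGC-1alpha coactivator, averaged 0.592 ± 0.316 CPM in Swhtr null and 0.250 ± 0.100 CPM in WT treated slices (log2 fold change 1.22, SE 0.51, adjusted p = 0.77), and its level was too low for a firmer statement. Between untreated slices Mrm1, Mrm3 and Trmt10c had the smallest p-values (log2 fold changes of 0.19, 0.34 and 0.17, adjusted p = 0.90 each), and for the difference of responses Mrpl12 followed Pprc1 and Mterf4 (log2 difference -0.27, adjusted p = 0.72).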

How the data were processed

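RNA was extracted from cultured heart slices with TRIreagent, and 16 paired-end libraries were sequenced. The study's methods name a Ribo-Minus and ScriptSeq library, the sample labels a TruSeq mRNA kit. The authors aligned reads of 150 bases with STAR (default settings) to mm10 and deposited raw counts per Ensembl gene (GenomicAlignments); the submitters' processing notes name STAR and mm10. The counting mode, the strand setting and the treatment of reads that fit several places are not given in the sources used here. All 16 columns held counts for 55487 genes, and depth was 17830351 to 29941903 counts per library. Intervals cover counting error only.

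Symbols and positions were taken from GENCODE M21 (GRCm38). Genes whose 16 counts summed to 10 or more (24971) were fitted in edgeR 4.0.16 (R 4.3.3; TMM, robust quasi-likelihood, 4 group means, 12 residual degrees of freedom), with Benjamini-Hochberg adjustment over all genes tested. Calls needed an adjusted p under 0.05 together with a log2 fold change beyond 0.58 in either direction. These are the study's thresholds, but the study used them with DESeq2, so its counts of genes are not those of edgeR here. CPM are scaled by TMM. Ratios of counts (1 count added) were compared between groups with exact permutation tests (two-sided) in SciPy 1.17.1. Transcripts were aligned with BLAST 2.17.0. The fit was tested on simulated counts of independent libraries. That test cannot show how the fit does where libraries share a mouse. No 2 libraries of a group were duplicates (lowest chi-square per degree of freedom 7.62).

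All members are accounted for. Of the nuclear list, called genes and up to 3 with the smallest p per comparison are named, and of the nuclear copies those with a mean of at least 50 counts. The members and lists were chosen with earlier results of these data known. Other values were chosen after they were seen.

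Replicate numbers come from the labels. Deviations from the group means of same-numbered treated and untreated libraries correlated at 0.148, 0.591, 0.259 and 0.399 in Swhtr null slices, and at -0.108, -0.084, 0.165 and 0.319 in WT slices. In Swhtr null slices the treated library 3 correlated best with the untreated library 4, and the others with their own number. In WT slices libraries 3 and 4 correlated best with their own number. Same-numbered Swhtr null and WT libraries, from different mice, correlated at 0.102, 0.378, 0.008 and 0.374 untreated. Treated ones correlated at 0.306, 0.008, -0.007 and -0.015. The numbers were read as pairs in Swhtr null slices only, but these values do not show that same-numbered libraries share a mouse. The alternatives were DESeq2 1.42.0, its size factors, TMM without the mitochondrial genes, no filter, filterByExpr, only the libraries compared, a replicate block, other pseudocounts and each library left out.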

Additional observations from a re-analysis of the deposited data

Results flagged for a closer look

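In the 84 sets of 4 libraries checked for a single library far from the rest, 2 stood out, and chance gives about 1 in 20. mt-Co1 in treated Swhtr null slices had 8064 CPM in library 4, with the nearest of the others at 6979 CPM. mt-Atp6 in untreated WT slices had 925.8 CPM in library 2, with the nearest of the others at 872.7 CPM. No member passed the test of a difference between the genotypes in its response to treatment (edgeR).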

How the results depend on the processing

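All 13 mRNAs were higher in treated than in untreated Swhtr null slices under every alternative run. Of the 554 log2 fold changes of single members under the alternatives, 7 lost a call on both thresholds, 5 gained one and 5 changed sign. The others kept their direction and their call. By the adjusted p alone, 25 of 554 log2 fold changes lost a value under 0.05 and 10 gained one, nearly all in Swhtr null slices, treated over untreated, where mt-Nd1 (0.0593) and mt-Nd4l (0.0627) lost it with no filter. In WT slices mt-Nd2 gained it with the replicate block (log2 fold change 0.33, adjusted p = 0.0299 from edgeR), where same-numbered libraries are not taken as pairs. The counts of calls did move. Genes called in Swhtr null slices, treated over untreated, numbered 155 and became 460 with DESeq2, 62 with only the libraries compared and 616 with the replicate block, and 22 to 575 with single libraries left out, lowest without the untreated library 4 and highest without the untreated library 2. Mitochondrially encoded genes called there numbered 1 (mt-Nd4l) and became 0 with no filter (adjusted p = 0.063 from edgeR), 0 with only the libraries compared (adjusted p = 0.095), and 0 to 4 with single libraries left out. In WT slices 0 genes were called, against 9 with DESeq2, 1 with no filter, 2 with only the libraries compared, 19 with the replicate block and 0 to 3 with single libraries left out. Treated slices of the genotypes differed in 23 genes, and in 35 with DESeq2. The difference of responses had 0 calls and 52 with the replicate block, none of them mitochondrially encoded. The block changed no other call of a member on both thresholds. With single libraries left out, these values changed sign in WT slices, treated over untreated: the log2 fold change of mt-Tp (-0.056 to 0.067), that of mt-Atp8 (-0.043 to 0.498, lowest without the treated library 1) and the log2 ratio of mt-Nd6 to mt-Cytb (-0.038 to 0.040). In Swhtr null slices the difference in the log2 ratio of mt-Rnr2 to mt-Rnr1 did so (-0.082 to 0.00604, highest without the untreated library 4). The cause was not tested. Pseudocounts of 0.5 and 5 left the ratios where they were. mt-Atp8 and the tRNA genes are limited by their counts, and rRNA levels by 1 untreated library.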

Other observations

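The log2 ratio of mt-Cytb to mt-Co1 was -1.93, -2.37, -2.56 and -2.31 in treated and -2.62, -2.57, -2.75 and -2.62 in untreated Swhtr null slices, without overlap. For mt-Nd4 to mt-Co1 it was -1.88, -2.10, -2.31 and -2.19 in treated and -2.46, -2.42, -2.59 and -2.51 in untreated Swhtr null slices, also without overlap. In WT slices the mt-Nd4 to mt-Co1 ratio was -2.07, -2.08, -2.21 and -2.29 in treated and -2.18, -2.19, -2.40 and -2.53 in untreated slices, with overlap. These ratios were chosen after their values were seen and are given without a test.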
